A study of Homo sapiens with 6 samples.

Results

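Dual-specificity MAP kinase phosphatases (DUSPs) switch off the mitogen-activated protein kinases ERK, JNK and p38 by removing phosphate from both the threonine and the tyrosine of the activation loop. The 10 catalytically active members with a kinase-binding domain were followed here: DUSP1, DUSP2, DUSP4 and DUSP5, which are nuclear and inducible; DUSP6, DUSP7 and DUSP9, which are mainly cytoplasmic and prefer ERK; and DUSP8, DUSP10 and DUSP16, which prefer JNK and p38. They were taken by gene symbol from the platform annotation with all probe sets that name 1 gene, which gave 23 probe sets of the 49395 on the array and 10 of the 18132 genes tested. Several of these phosphatases are themselves transcribed in response to the kinases they inactivate, so that their RNA is often read as a trace of recent MAP kinase signalling. In colorectal tumours, where the RAS-ERK pathway is often mutated, DUSP6 and DUSP4 belong to the usual transcripts of ERK output.

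The series compared total RNA of HCT116, a human colorectal carcinoma line, between 3 arrays of cells labelled Ctrl (treatment: control) and 3 arrays of cells labelled CSF3, the cytokine granulocyte colony-stimulating factor. Both groups grew in RPMI-1640 with serum. The labels do not say whether the cytokine was added or expressed, for how long, or from how many cultures or clones each group came, so the p-values measure the spread between these arrays, possibly a technical one. By its title, the study is concerned with NF-κB, TMEM74 and autophagy. Values are log2 signals as deposited, "called" means an adjusted p under 0.05 by limma over all genes, and changes are CSF3 minus Ctrl with their standard error.

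Some array-wide values bear on every result below. The median change of all genes was 0.16, with 0.31 in the dimmer and -0.13 in the brighter part of the genes, split at the median level. The hybridisation control probe sets had a median of 6.82 ± 0.07 in the Ctrl group and 8.36 ± 0.05 in the CSF3 group, and the gap between the 3' and 5' probe sets of GAPDH was 0.306 ± 0.007 and 0.682 ± 0.003 (SD, n = 3, exact two-sided permutation p = 0.1 for both, the smallest that 3 against 3 arrays can give). The sample codes in the labels also have a different prefix for each group, so any processing set apart by that code and the treatment cannot be told apart. The part of these values in the results was not tested. The CSF3 gene read higher in the CSF3 group on all 3 of its probe sets, with changes from 0.59 to 1.77. Among markers of colon epithelium, the tissue the labels name, the keratin gene KRT18 read 7.26 ± 0.01 and 7.48 ± 0.06 in the Ctrl and CSF3 groups. Its partner KRT8 fell by 1.32 ± 0.09 and the intestinal cadherin gene CDH17 rose by 1.05 ± 0.11, the largest changes of this list. CDH1, the gene of E-cadherin, read only 2.20 ± 0.09 and 2.24 ± 0.04, EPCAM 3.63 ± 0.05 and 3.30 ± 0.10 and VIL1 1.43 ± 0.19 and 1.70 ± 0.30, where the background probe sets of the array had medians of 1.42 and 1.44. In all, 7 of the 10 colon epithelial markers lay below the median level of all genes, so these arrays go against the epithelial label for part of its markers. The 4 leukocyte markers and 6 fibroblast and endothelial markers measured all lay below that median as well. Among the leukocyte markers 3 of 4 rose, and among the colon epithelial markers 5 of 10 rose and 2 fell. The mean level of the fibroblast and endothelial markers was 3.04 to 3.12 in the Ctrl group and 3.67 to 3.73 in the CSF3 group, and 5 of the 6 rose, where 45.4% of all genes rose and the dimmer genes had a median change of 0.31, a shift whose part in the results was not tested. In RNA of whole cultures, fewer cells of a type and less RNA per cell cannot be told apart.

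Because several of these genes rose together, the stretches before their transcription starts were searched for short motifs. RefSeq promoter windows of GRCh38.p14 matched 8 of the 10 genes with 10 windows, and the 250 bases before the start were read on both strands. No window was at hand for DUSP4 and DUSP5, both nuclear inducible genes, so neither was searched. The cyclic AMP response element (CRE), written as TGACGTCA, and the AP-1 site, written as TGANTCA, were searched with the E-box as CACGTG. The GC box was searched as GGGCGG and the TATA box as TATAAA. For ETS factors the core used was CCGGAA, and for STAT factors it was TTCNNNGAA. The CArG box and the NF-κB site were searched by their usual consensus. DUSP1 and DUSP8 held the CRE, the element bound by CREB and ATF factors, which 1.65% of all 35116 windows of that length hold. The E-box stood before DUSP1 and DUSP2, against 6.34% of all windows. The sequences are shown because these 3 genes rose on the CSF3 arrays; capitals mark the CRE and the E-box for DUSP1, the E-box for DUSP2 and the CRE for DUSP8. The DUSP1 window is chr5:172771196-172771445 (minus strand), with the CRE at -125 to -118 and the E-box at -108 to -103 from the start. That of DUSP2 is chr2:96145441-96145690 (minus strand), with the E-box at -113 to -108. For DUSP8 the 30 bases around each CRE are given, chr11:1572371-1572400 and chr11:1572327-1572356 (minus strand). The DUSP8 window, chr11:1572272-1572521, lies inside the span of the gene, chr11:1554051-1572848. The start it precedes is thus not the outermost one of DUSP8, and its CREs lie within the gene span.
DUSP1: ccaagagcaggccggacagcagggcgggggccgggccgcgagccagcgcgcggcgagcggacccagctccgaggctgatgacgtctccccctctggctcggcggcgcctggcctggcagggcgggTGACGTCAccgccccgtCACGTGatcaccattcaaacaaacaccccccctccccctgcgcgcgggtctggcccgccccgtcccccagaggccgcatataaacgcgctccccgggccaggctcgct
DUSP2: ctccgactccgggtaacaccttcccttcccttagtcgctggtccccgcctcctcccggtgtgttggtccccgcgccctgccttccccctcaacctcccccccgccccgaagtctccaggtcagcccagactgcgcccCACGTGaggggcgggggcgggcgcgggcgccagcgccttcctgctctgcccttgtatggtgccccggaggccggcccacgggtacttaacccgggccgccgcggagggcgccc
DUSP8 first CRE: ccgggctccgcTGACGTCAcctgcccccga
DUSP8 second CRE: ttggctgcaggTGACGTCAggggctttttt
In these windows DUSP1 alone had the TATA box letters (10.7% of all windows), DUSP7 alone a match to the NF-κB consensus (9.96%), and 7 genes a GC box (42.6%). No window of the 8 genes held the AP-1, ETS, STAT or CArG letters, which 6.57%, 14.5%, 6.57% and 1.16% of all windows hold. A match or its lack describes letters in this stretch and says nothing about binding.

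Across the 10 genes, each with its brightest probe set, 7 rose, 2 fell and 1 was not called. Of all genes, 45.4% rose and 27.1% fell, and 72.5% were called in either direction, so a call by itself is common on these arrays. The median change of the 10 was 0.51, beside 0.16 for all genes. The classes differed in their values: the nuclear inducible genes had a median of 0.66 with 4 of 4 higher, the genes selective for JNK and p38 a median of 0.44 with 2 higher and 1 lower, and the ERK-selective genes a median of -0.10 with 1 higher, 1 lower and 1 not called. On the 3 CSF3 arrays the median distance of a class from its Ctrl means was 0.72, 0.63 and 0.63 for the nuclear inducible genes. It was 0.41, 0.49 and 0.43 for the JNK and p38 class and -0.13, -0.13 and -0.05 for the ERK class. By the brightest probe sets, the order of the classes was thus the same on each CSF3 array, a description of 3 or 4 genes per class that carries no test. The order depended on the choice of probe sets. With all probe sets of a gene averaged, DUSP8, DUSP10 and DUSP16 changed by 0.67, 0.66 and -0.34. DUSP1, DUSP2, DUSP4 and DUSP5 then changed by 0.47, 0.58, 0.74 and 0.21, so the first 2 classes changed places by their medians. All 10 genes had groups that did not overlap, 7 with the CSF3 arrays higher and 3 with them lower, as did 76.2% of all genes (47.2% higher and 29.1% lower).

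**Figure D1:**
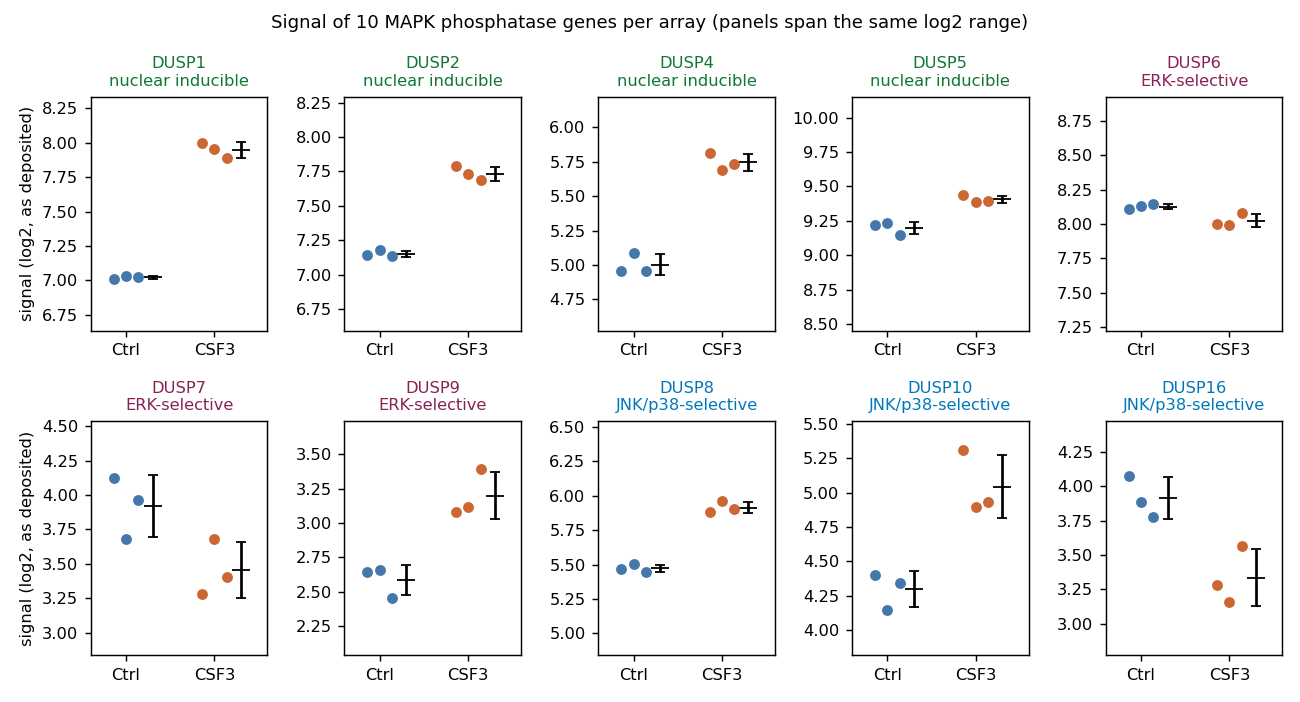
Log2 signal as deposited (y axis) of the brightest probe set of each gene on the Ctrl (blue) and CSF3 (orange) arrays; points are arrays, the black marks are the mean and SD of 3 arrays, and each panel spans the same log2 range. DUSP1 shows the largest difference of means, DUSP6 the smallest difference of means, and in DUSP7 the lowest Ctrl and the highest CSF3 array nearly touch.

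DUSP1, an immediate early gene whose protein acts on JNK, p38 and ERK, rose most by its brightest probe set. Its gene lies at chr5:172768096-172771195. The Ctrl arrays read 7.01, 7.03 and 7.02 and the CSF3 arrays 8.00, 7.95 and 7.89. All CSF3 arrays thus stood far above a Ctrl group that was tight, at a 1.90-fold difference (change 0.92 ± 0.05, limma adjusted p = 1.83e-05). By size of the rise it ranked 184th of the 18132 genes. Its other 3 probe sets changed by 0.57 ± 0.06, 0.29 ± 0.10 and 0.08 ± 0.07, of which the last was not called (limma adjusted p = 0.347). The size of the rise therefore depended on the probe set, from 0.08 to 0.92, and with all 4 averaged it was 0.47.

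DUSP4 and DUSP2, the nuclear phosphatases for ERK and the stress kinases, came next within the nuclear class. DUSP4 (chr8:29333064-29350684) read 4.96, 5.09 and 4.96 on the Ctrl arrays and 5.81, 5.69 and 5.73 on the CSF3 arrays. No array came near the other group, and the change was 0.74 ± 0.06 (1.67-fold, limma adjusted p = 7.25e-05). DUSP2 (chr2:96143169-96145440), first known from activated lymphocytes, read 7.14, 7.18 and 7.14 against 7.79, 7.73 and 7.69. It rose 1.50-fold (0.58 ± 0.05, limma adjusted p = 9.09e-05). Each has a single probe set here, and that of DUSP2 is of the kind that can hybridise with more than 1 transcript.

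DUSP5, the nuclear phosphatase that acts on ERK alone, rose least of its class. The gene lies at chr10:110497907-110511533. Its Ctrl arrays read 9.22, 9.23 and 9.15 and its CSF3 arrays 9.44, 9.39 and 9.40. The groups were close but separate, and the change of 0.21 ± 0.05 passed the test (limma adjusted p = 0.00877). This is near the median of all genes, 0.16, and lies above the median of the brighter genes, -0.13, among which DUSP5 falls.

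The ERK-selective genes went 3 ways. DUSP6 (chr12:89347235-89352501), the cytoplasmic ERK phosphatase that is induced by ERK as negative feedback, read 8.11, 8.13 and 8.14 on the Ctrl arrays and 8.00, 8.00 and 8.08 on the CSF3 arrays. The CSF3 arrays were slightly lower without overlap, but the change of -0.10 ± 0.05 was not called (limma adjusted p = 0.113, 95% interval from -0.22 to 0.02). Its other 3 probe sets gave 0.07, -0.06 and -0.14, none of them called. After quantile normalization the brightest one changed by 0.07 (limma adjusted p = 0.295), whereas with a trend and robust settings the same -0.10 was called (limma adjusted p = 0.0218), so DUSP6 has no settled direction. One of its other probe sets rose by 0.24 after quantile normalization (limma adjusted p = 0.00765). The interval does not reach the changes of DUSP1 or DUSP4.

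DUSP7, a close relative of DUSP6, fell, with little margin. At chr3:52048919-52056571, its single probe set read 4.12, 3.68 and 3.96 on the Ctrl arrays and 3.28, 3.68 and 3.40 on the CSF3 arrays. One array of each group met at 3.68, and the change was -0.47 ± 0.14 (limma adjusted p = 0.0179). The call was lost without Ctrl replicate 1 (-0.37, limma adjusted p = 0.0602), without Ctrl replicate 3 (-0.45, limma adjusted p = 0.0536) and without CSF3 replicate 1 (-0.38, limma adjusted p = 0.0586). DUSP9 (chrX:153642441-153651326), the ERK phosphatase best known from placenta, read 2.64, 2.66 and 2.46 against 3.08, 3.12 and 3.39. Its signal rose by 0.61 ± 0.10 (limma adjusted p = 0.00128), and that of its second probe set by 0.44 ± 0.13, from a Ctrl level of 1.67 where the background probe sets had a median of 1.42. DUSP9 is the only one of the 10 among the 30% dimmest genes, no detection call tells whether its signal exceeds background, and the dimmer genes as a whole had a median change of 0.31. These values are therefore differences of signal and cannot be read as a fold of the transcript. After quantile normalization its 2 probe sets changed by 0.44 and 0.22, and the second was no longer called (limma adjusted p = 0.207).

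**Figure D2:**
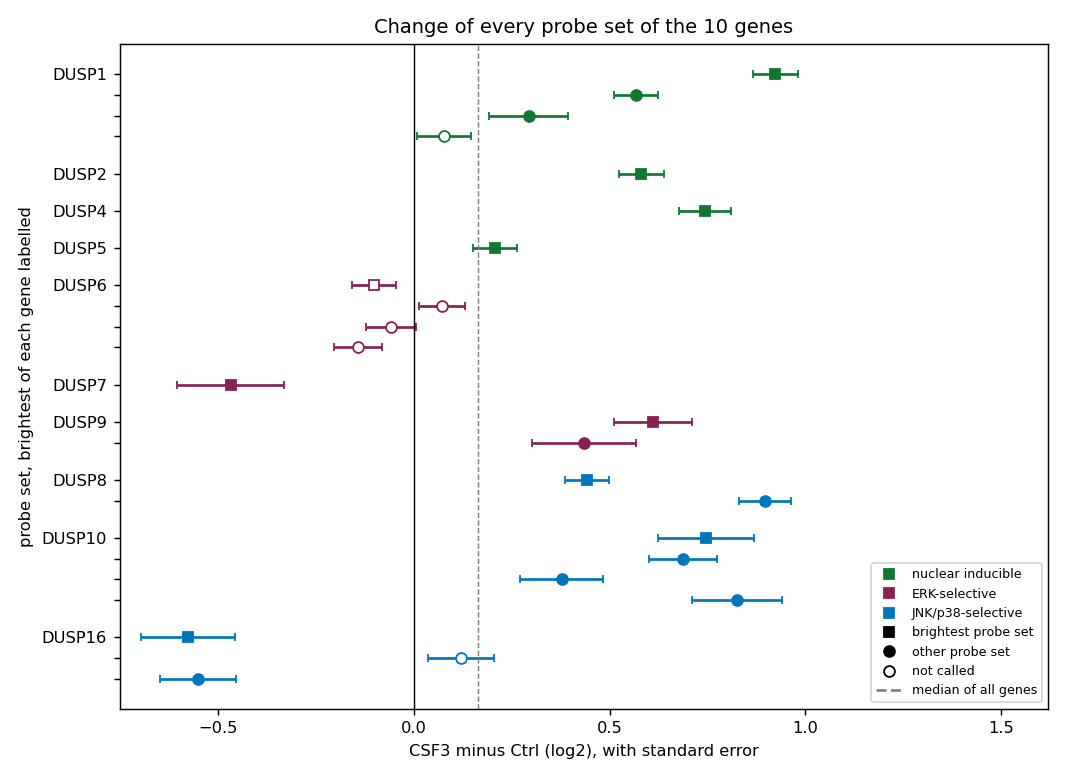
CSF3 minus Ctrl in log2 units (x axis) with its standard error for all 23 probe sets, from the fit over all single-gene probe sets; squares are the brightest probe set of a gene, circles the others, open symbols are not called, and the dashed line is the median of all genes at 0.16. The 4 probe sets of DUSP10 all lie to the right, those of DUSP6 straddle 0, and 1 of the 3 of DUSP16 lies on the other side of 0 from its neighbours.

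Among the phosphatases of JNK and p38, DUSP10 and DUSP8 rose and DUSP16 fell. DUSP10 (chr1:221701424-221742089), which restrains JNK and p38 in innate immune cells, read 4.40, 4.15 and 4.34 on the Ctrl arrays and 5.31, 4.89 and 4.93 on the CSF3 arrays. The highest Ctrl array stayed below the lowest CSF3 array, with a change of 0.75 ± 0.12 (1.68-fold, limma adjusted p = 0.00133). All 4 of its probe sets rose, by 0.38 to 0.83, although the one at 0.38 was no longer called after quantile normalization (0.29, limma adjusted p = 0.0841). The brightest is of the kind that can hybridise with more than 1 transcript, and with that kind left out DUSP10 rose by 0.69 ± 0.09. DUSP8 (chr11:1554051-1572848), best known from brain and heart, read 5.47, 5.50 and 5.45 against 5.88, 5.96 and 5.90. Its arrays were tight in both groups, and the rise was 0.44 ± 0.05 (1.36-fold, limma adjusted p = 0.000271). A second, dimmer probe set rose by 0.90 ± 0.07, and it is of the kind that can hybridise with more than 1 transcript.

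DUSP16, which binds JNK and shuttles between nucleus and cytoplasm, went the other way. Its gene spans chr12:12473282-12562863. The Ctrl arrays read 4.08, 3.88 and 3.78 and the CSF3 arrays 3.28, 3.16 and 3.57. Both groups were spread, but without overlap, and the change was -0.58 ± 0.12 (1.49-fold lower, limma adjusted p = 0.00398). A second probe set fell by 0.55 ± 0.10, while another read 3.49, 3.58 and 3.53 against 3.72, 3.48 and 3.77 and was not called (0.12 ± 0.08, limma adjusted p = 0.230). With the probe sets that can hybridise with more than 1 transcript left out, the brightest one left was this one. The probe set that fell by 0.55 is not of that kind and stayed in. That setting thus reads the uncalled probe set for DUSP16, while the fall rests on the other 2.

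Over all 23 probe sets, 14 rose, 3 fell and 6 were not called, that is 60.9% and 13.0%, beside 36.7% and 28.8% of the 44988 single-gene probe sets. Calls in either direction were 73.9% of the 23 and 65.5% of all. The 3 that fell were that of DUSP7 and 2 of DUSP16. All 4 probe sets of DUSP6 and 1 each of DUSP1 and DUSP16 made up the rest. Groups did not overlap for 19 of the 23, of which 14 were higher and 5 lower, against 70.8% of all probe sets (39.8% higher and 30.9% lower).

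The deposited arrays differ in their distributions, so each change was set beside its value after quantile normalization. The counts stayed at 7 higher, 2 lower and 1 not called, where 59.3% of all genes were called, 39.2% higher and 20.1% lower. DUSP1 then rose by 1.12, DUSP4 by 0.97, DUSP10 by 0.90, DUSP2 by 0.78, DUSP8 by 0.69 and DUSP5 by 0.30. DUSP7 and DUSP16 fell by 0.49 and 0.62. The medians of the classes were 0.88 for the nuclear inducible, 0.69 for the JNK and p38 and 0.07 for the ERK class, beside 0.13 for all genes.

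**Figure D3:**
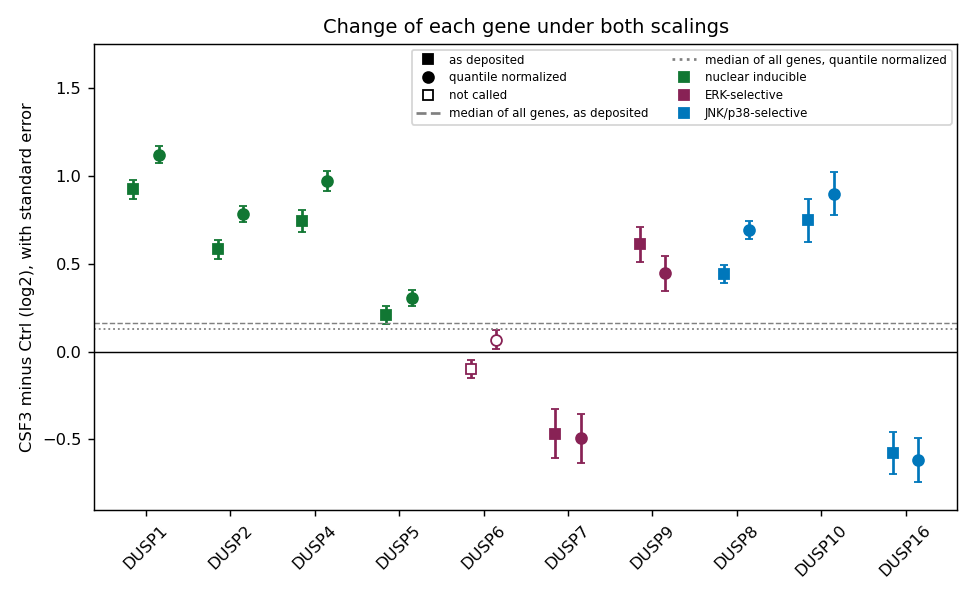
CSF3 minus Ctrl in log2 units (y axis) with its standard error for the brightest probe set of each gene, as deposited (squares) and after quantile normalization (circles); open symbols are not called and the grey lines are the medians of all genes, 0.16 and 0.13. DUSP6 is the gene whose value moves across 0, from -0.10 to 0.07.

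The substrates of these phosphatases and the kinases above them changed in both directions. For comparison, 45.4% of all genes rose and 27.1% fell as deposited, with 39.2% and 20.1% after quantile normalization. Of 8 MAP kinase genes measured, 2 rose, 4 fell and 2 were not called, with a median of -0.09 (0.12 after quantile normalization, with 3 higher and 3 lower). MAPK9, which encodes JNK2, fell by 0.74 ± 0.06 (limma adjusted p = 4.96e-05). The p38 genes split: MAPK11 (p38β) rose by 0.72 ± 0.07, while MAPK13 (p38δ) fell by 0.70 ± 0.07 and MAPK12 (p38γ) by 0.55 ± 0.08. The gene of p38α was not among the 8 measured. Of 6 MAP2 kinase genes 2 rose and 4 fell, and after quantile normalization 2 rose and 2 fell. MAP2K3, an activator of p38, rose by 0.53 ± 0.05, while MAP2K4, an activator of JNK, fell by 0.62 ± 0.07 and MAP2K5 of the ERK5 branch fell by 0.79 ± 0.07. Of 4 RAS and RAF pathway genes measured, 2 rose and 1 fell, with a median of 0.15, or 3 and 1 with a median of 0.34 after quantile normalization. The one that fell was SOS1, the exchange factor that loads RAS, which fell by 1.46 ± 0.06 (limma adjusted p = 8.78e-06), while HRAS rose by 0.45 ± 0.06 and ARAF by 0.22 ± 0.06. After quantile normalization HRAS rose by 0.71 and ARAF by 0.42, and GRB2, the adaptor that recruits SOS1, was called as well, at 0.25 against 0.07 as deposited.

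Other phosphatases of the pathway were read the same way. The 3 tyrosine phosphatases with the same type of kinase-binding motif gave 1 rise and 2 genes not called: PTPRR rose by 0.44 ± 0.13, and PTPN7 and PTPN5 had changes of 0.12 ± 0.05 and 0.22 ± 0.12. PTPRR and PTPN5 are among the 30% dimmest genes, as DUSP9 is, and the median change of the dimmer genes was 0.31. The PTPRR call was not kept after quantile normalization, where PTPN7 was called (0.39 ± 0.05). Among 17 atypical dual-specificity phosphatases, most of them small members that lack this domain, 7 rose, 4 fell and 6 were not called. Their median was 0.20. This is close to the 45.4% and 27.1% of all genes that rose and fell and to the median of all genes, 0.16. DUSP14 rose by 0.66 ± 0.06, while DUSP3 fell by 0.71 ± 0.07 and the catalytically inactive STYX by 0.76 ± 0.07. After quantile normalization 7 rose and 2 fell, where 39.2% and 20.1% of all genes did.

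Genes downstream of the kinases gave a mixed picture beside the phosphatases. Shares of all genes called higher and lower were 45.4% and 27.1% as deposited, and 39.2% and 20.1% after quantile normalization. Of 17 ERK output genes, 6 rose and 8 fell, with a median of -0.10, or 7 and 5 with a median of 0.02 after quantile normalization. SPRED2, an inhibitor of RAS-ERK signalling, fell by 1.12 ± 0.06 and the cyclin D1 gene CCND1 by 0.97 ± 0.05, and IER3, an early response gene, rose by 0.74 ± 0.05. Of 10 AP-1 genes, 5 rose, 1 fell and 4 were not called, a count near the 45.4% of all genes that rose, with a median of 0.44 beside 0.16 for all genes, or 7 higher and 3 not called after quantile normalization. FOS, an immediate early gene like DUSP1, rose by 1.46 ± 0.05, ATF3 by 1.28 ± 0.05 and JUNB by 0.87 ± 0.05. These lists were chosen with earlier results of these arrays known.

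**Figure D4:**
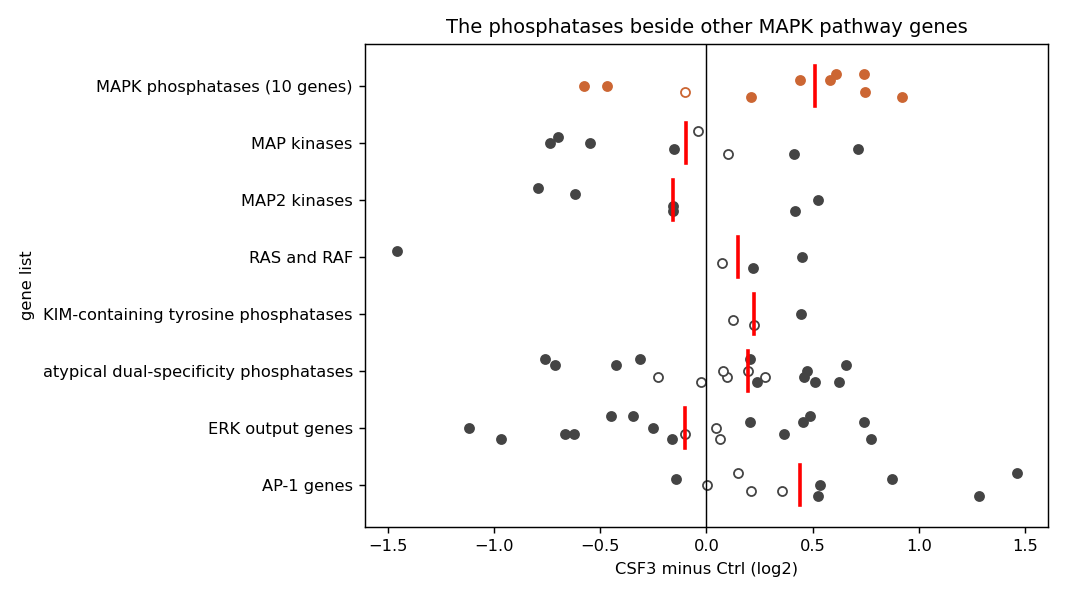
CSF3 minus Ctrl in log2 units (x axis) of every measured gene of each list, with the 10 phosphatase genes in orange, open symbols for genes not called and a red bar at the median of each list. The phosphatases have a median of 0.51 and the AP-1 genes of 0.44, while the MAP kinases and the ERK output genes centre near 0 with members far on both sides.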

How the data were processed

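Biotin-labelled total RNA of 3 Ctrl and 3 CSF3 samples was measured on Affymetrix arrays. The authors deposited 1 value per probe set and array, taken here as log2 values from their range (0.81 to 12.7); the background correction, summarisation and normalization were not stated in any source used here, and folds assume base 2. Probe sets naming 1 gene (44988) were kept, and the probe set with the highest mean stood for its gene. One probe set shared by DUSP8 and another gene was left out. CSF3 minus Ctrl was tested over all genes, and separately over all single-gene probe sets, with limma 3.58.1 (lmFit, eBayes; R 4.3.3), without filter or covariates, with Benjamini-Hochberg adjustment at 0.05. Without detection calls, absence and low level look alike, and the number of arrays limits the precision. The fit of CSF3 against Ctrl was tested on simulated data of 18132 genes: it recovered 10%, 48%, 86% and 100% of 50 genes each changed by 0.25, 0.5, 1 and 2, and called 2 unchanged genes. The simulated arrays held no array-wide shift and few changed genes, whereas 72.5% of all genes were called on the real arrays. These rates therefore check the code and do not carry over to the real arrays. The text names the 10 genes, CSF3, the 3 genes of each pathway list with the smallest p, and MAPK12, GRB2 and the marker genes of the label check, which were picked after their values were seen. The members and lists were chosen with earlier results of these data known. The alternatives were other scalings, filters, probe set choices, variance models, a replicate block and leaving out each array.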

Additional observations from a re-analysis of the deposited data

How the results depend on the processing

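Of 157 values of single genes under 16 alternatives, 140 kept their direction and side of the threshold. No phosphatase gene or probe set reached a change of at least 1 as deposited, so with that added threshold 0 of the 10 genes and 0 of the 23 probe sets were called by limma (against 9 and 17 without it), and 728 of all genes (117 higher and 611 lower) against 13148. Without probe sets ending in _x_at or _s_at, 10 of 16 phosphatase probe sets were called, 8 higher and 2 lower. With all kept it was 17 of 23, 14 higher and 3 lower. The probe sets left out had all been called, so the share called was lower as well as the count. DUSP2 and DUSP9 had none left, and DUSP16 turned to 0.12 (limma adjusted p = 0.219). Its brightest probe set left was the one not called, while another that fell by 0.55 ± 0.10 stayed in. After quantile normalization DUSP6 turned to 0.068, and the medians moved to 0.57 for all 10 genes, 0.88 for the nuclear inducible, 0.068 for the ERK-selective and 0.69 for the JNK and p38 genes; the cause was not tested. DUSP7 also lost its call by Student's test without moderation (adjusted p = 0.0801), and DUSP6 gained one by it (adjusted p = 0.0461). With each array left out in turn, limma called 8 to 9 of the 10 genes, 14 to 19 of the 23 probe sets and 11408 to 12891 of all genes. With the replicate number as a block, limma called 9 genes, 17 probe sets and 12868 of all genes. The deviations of same-numbered arrays correlated at 0.027 to 0.038 across genes. These values show no strong shared effect of the number, and cannot tell whether the arrays were handled in pairs.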
